A study of Rattus norvegicus with 69 samples.

Results

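This account is about what PYY3-36 did to liver mRNA when it was given on top of liraglutide. The 5 batch B libraries labelled PYY_Lira, from rats given liraglutide+PYY3-36, were set against the 5 libraries labelled Lira, all of batch B, from rats given liraglutide alone. These are 10 of the 69 libraries in the deposited table. Members were taken by group and batch label, with no measured value used.

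All animals were adult male Wistar rats, made obese with a high-fat diet and later free to choose between a high-fat and a low-fat diet. Liraglutide was given under the skin. The partner compound came from an osmotic minipump, which held PYY3-36 in the combined group and saline in the liraglutide group, so that the groups compared differed in the content of the pump. Livers were taken after an overnight fast. The other batch B groups were PYY3-36 alone (label PYY, n = 5), saline alone (label Saline, n = 5), sham surgery (label Sham, n = 5) and Roux-en-Y gastric bypass, RYGB (label Bypass, n = 3). A further 6 PYY_Lira libraries carry the label of batch A and were left out of the comparison. Per the study's methods 6 animals given both peptides and 3 given saline were fed for longer, and the labels do not say which libraries are theirs. The labels give a batch letter and do not say what a batch is.

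Liraglutide is a long-lasting agonist of the receptor for glucagon-like peptide 1 (GLP-1), an intestinal hormone that raises insulin secretion and lowers food intake. PYY3-36 is the form of peptide YY left after the protease dipeptidyl peptidase 4 removes its first residues, and it acts mainly on the neuropeptide Y receptor Y2 in the brain to reduce appetite. The liver of a fasted rat normally burns fatty acids and makes glucose and ketone bodies, while insulin, acting through the factor SREBP-1c, turns on the enzymes that build fatty acids.

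The mRNA of the receptors was close to absent in these livers. Glp1r, Npy2r, Npy4r and Npy5r, which encode the GLP-1 receptor and 3 receptors of the neuropeptide Y family, had 0 counts in each of the 10 libraries. Npy1r had 0 counts in 9 of them and a single count in 1. Total counts per library ran from 12560017 to 27531568 over these 10 libraries, and a count of 0 (taken as up to 3 counts) allows a level of up to 0.146 to 0.208 CPM, depending on the library and for counting error only. Dpp4, which encodes the protease that forms PYY3-36, was well expressed, at 112 ± 13.8 CPM (CPM are counts scaled to the depth of each library with TMM factors; SD, n = 5) with PYY3-36 added and 96.3 ± 15.4 (SD, n = 5) without. The receptor of glucagon, Gcgr, was at 171 ± 36.5 and 222 ± 130.4 CPM. Neither differed beyond the spread of its groups (log2 fold changes 0.22 and -0.38, edgeR adjusted p = 0.815 and 0.817). The tissue label held, with the liver protein albumin (Alb) between 48262 and 349980.0 CPM in the 10 libraries.

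Libraries of both groups stood apart from the rest. The first principal component of the 28 batch B libraries carried 50.2% of their variance. On it, PYY_Lira replicates 8, 9 and 11 scored 138.3, 65.9 and 97.4 and Lira replicate 4 scored 114.6. The other 6 libraries compared lay between -64.6 and 34.1. PYY replicate 5 (149.9) and Sham replicate 12 (104.8), which received no liraglutide, lay at the same end. The TMM factors of PYY_Lira replicates 8, 9 and 11 and Lira replicate 4 were between 0.67 and 0.89. Since 3 of 5 libraries of one group and 1 of 5 of the other lay there, values without these 4 libraries, PYY replicate 5 and Sham replicate 12 are given beside the genes they move. That leaves PYY_Lira replicates 7 and 10 against Lira replicates 1, 2, 3 and 5, and these 6 left out are called the outlying libraries below.

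**Figure D1:**
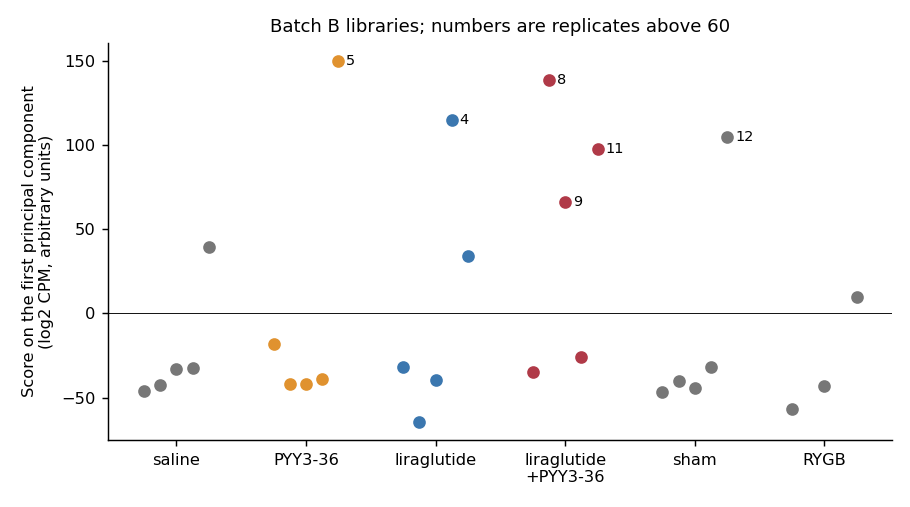
Score of each of the 28 batch B libraries on the first principal component of log2 CPM (vertical axis, arbitrary units) by group (horizontal axis), each point 1 library, with replicate numbers beside points above 60. The 3 highest liraglutide+PYY3-36 libraries score 65.9 to 138.3, Lira replicate 4 scores 114.6, and PYY replicate 5 and Sham replicate 12 lie at the same end.

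With PYY3-36 added to liraglutide, 0 of 16004 tested genes (0%) passed an adjusted p under 0.05 in edgeR, where the smallest adjusted p was 0.815. At an unadjusted p under 0.05 there were 619 genes (3.87%), of which 302 (1.89%) were higher and 317 (1.98%) lower with PYY3-36 added. Among them, 136 of the higher and 169 of the lower genes differed by 1 or more on the log2 scale. DESeq2 called 0 genes, with 829 at an unadjusted p under 0.05. Of all tested genes 46.5% had values above 0, the median log2 fold change was -0.04 and the median standard error 0.39. In 37 genes (0.231%) all 5 libraries with PYY3-36 added lay above all 5 libraries of liraglutide alone, and in 20 genes (0.125%) all 5 lay below. Such lack of overlap, given for single genes below, is a description. It was not set against the share that unrelated groups would give.

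The count of genes at an unadjusted p under 0.05 moved with single libraries. It was 1861 without Lira replicate 4, 1448 without PYY_Lira replicate 7 and 1158 without PYY_Lira replicate 10. It was 272 without PYY_Lira replicate 8, 275 without PYY_Lira replicate 11 and 287 without Lira replicate 2. In each of these refits 0 genes passed the adjusted p. Limma-voom with sample quality weights was the one setting tried that called genes, 3316 higher and 2624 lower. It gave Lira replicate 1 a weight of 3.58 and Lira replicate 4 a weight of 0.192, and the same limma-voom fit without these weights called 0 genes.

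**Figure D2:**
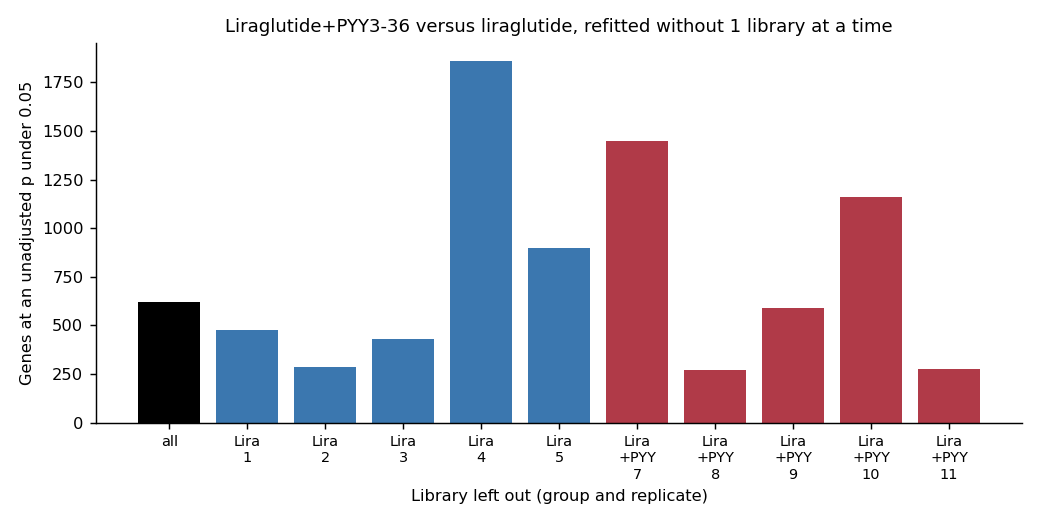
Number of genes at an unadjusted p under 0.05 in liraglutide+PYY3-36 versus liraglutide (vertical axis) with all libraries (black, 619 genes) and without each library in turn (horizontal axis; blue, liraglutide; red, liraglutide+PYY3-36). The count runs from 272 without PYY_Lira replicate 8 to 1861 without Lira replicate 4.

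Among the enzymes that build fatty acids, the smallest p and the largest log2 fold change of 22 tested were those of Scd. It encodes stearoyl-CoA desaturase, which puts a double bond into palmitic and stearic acid (gene ID 246074, Rnor_6.0 chromosome 1, 264159966 to 264173061). The PYY_Lira replicates 7 to 11 were at 1864, 8896, 4730.5, 2715 and 3015 CPM. The Lira replicates 1 to 5 were at 822, 704, 1583, 1135 and 1274 CPM. The groups did not overlap, and the lowest library with PYY3-36 added lay above the highest without. The log2 fold change was 1.94 (standard error 0.537, 95% interval 0.84 to 3.05, unadjusted p = 0.00127 in edgeR), a 3.84-fold difference that did not pass the adjusted p (0.815). Leaving out single libraries of both groups gave log2 fold changes of 1.48 to 2.13. Without the outlying libraries the value was 1.08 (unadjusted p = 0.11).

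Me1, the malic enzyme that supplies NADPH for fatty acid synthesis, had the next smallest p of this list. It was at 62.5, 171, 149, 57.5 and 58.2 CPM with PYY3-36 added and at 25.2, 29.7, 28.3, 88.6 and 40.5 without, with Lira replicate 4 the one liraglutide library inside the range of the other group. Its log2 fold change was 1.23 (standard error 0.436, unadjusted p = 0.00911 in edgeR). It was 1.67 without Lira replicate 4 and 0.95 without PYY_Lira replicate 8. Settings other than leaving out single libraries gave 0.77 to 1.70. Elovl6, which lengthens palmitic acid, was low in both groups, at 2.13 ± 2.51 and 0.598 ± 0.407 CPM (SD, n = 5), with a log2 fold change of 1.84, or 0.82 without PYY_Lira replicate 8. Thrsp, a small nuclear protein that follows fat synthesis, was at 1013 ± 425 and 615 ± 179 CPM, a log2 fold change of 0.72. The fatty acid synthase Fasn (log2 fold change 0.41), the ATP citrate lyase Acly (0.63), the acetyl-CoA carboxylase Acaca (-0.45) and the factor Srebf1 (-0.27) had p-values of 0.21 or more. Of 22 tested genes of fatty acid synthesis, 15 had values above 0 (median log2 fold change 0.21), and 0 passed the adjusted p. At an unadjusted p under 0.05, 2 were higher and 0 lower.

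Genes of cholesterol synthesis were mostly at values above 0, none past the adjusted p. Hmgcs1, which makes the HMG-CoA that enters the pathway, had a log2 fold change of 0.85 that became -0.04 without the outlying libraries. Stard4, a cholesterol carrier, had one of 0.68. Insig1, which holds the SREBP factors in the endoplasmic reticulum, had one of 1.25, and 0.26 without PYY_Lira replicate 8. Of 25 genes of this list 17 had values above 0 (median log2 fold change 0.16). Without the outlying libraries 24 of 25 were positive, with a median of 0.41, while 44.8% of all genes were positive there.

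Genes of fatty acid uptake and oxidation had values on both sides of 0. Abcd3, a transporter of fatty acids into peroxisomes (gene ID 25270, chromosome 2, 225335708 to 225389120), was at 222, 284, 299, 206 and 298 CPM with PYY3-36 added and at 163, 148, 164, 192 and 204 without, so that the groups did not overlap. The difference was 0.59 on the log2 scale (standard error 0.200, unadjusted p = 0.00689 in edgeR). Cpt1a, which admits fatty acids to mitochondria, was at 350.2 ± 121 and 223 ± 66.9 CPM (SD, n = 5), a log2 fold change of 0.65 (unadjusted p = 0.0275 in edgeR). Cyp4a3, an omega-hydroxylase and target of the receptor PPAR-alpha, had a log2 fold change of 0.64 (unadjusted p = 0.0210 in edgeR). Without the outlying libraries these 3 values were 0.35, 0.40 and 0.38. The lowest value of Cpt1a under any setting tried was 0.15. Slc27a4, a fatty acid transport protein (gene ID 311839, chromosome 3, 8363937 to 8376858), went the other way. It was at 3.91, 5.06, 3.83, 5.26 and 4.59 CPM with PYY3-36 added and at 7.79, 7.25, 6.48, 7.61 and 5.50 without, with no overlap and a log2 fold change of -0.61 (unadjusted p = 0.00493 in edgeR). Of 31 genes of oxidation and ketone synthesis 23 had values above 0 (median log2 fold change 0.24), and 2 were higher at an unadjusted p under 0.05.

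The coat proteins of lipid droplets had estimates near 0 with wide intervals. Plin2 was at 108 ± 21.8 CPM with PYY3-36 added and 102 ± 38.8 without (SD, n = 5), and its log2 fold change of 0.08 had a 95% interval of -0.73 to 0.90. Plin3 was at 22.8 ± 4.31 and 22.1 ± 11.1 CPM, a log2 fold change of 0.04 with an interval of -0.57 to 0.66. Of 16 genes of this list 9 were positive and 0 had an unadjusted p under 0.05.

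**Figure D3:**
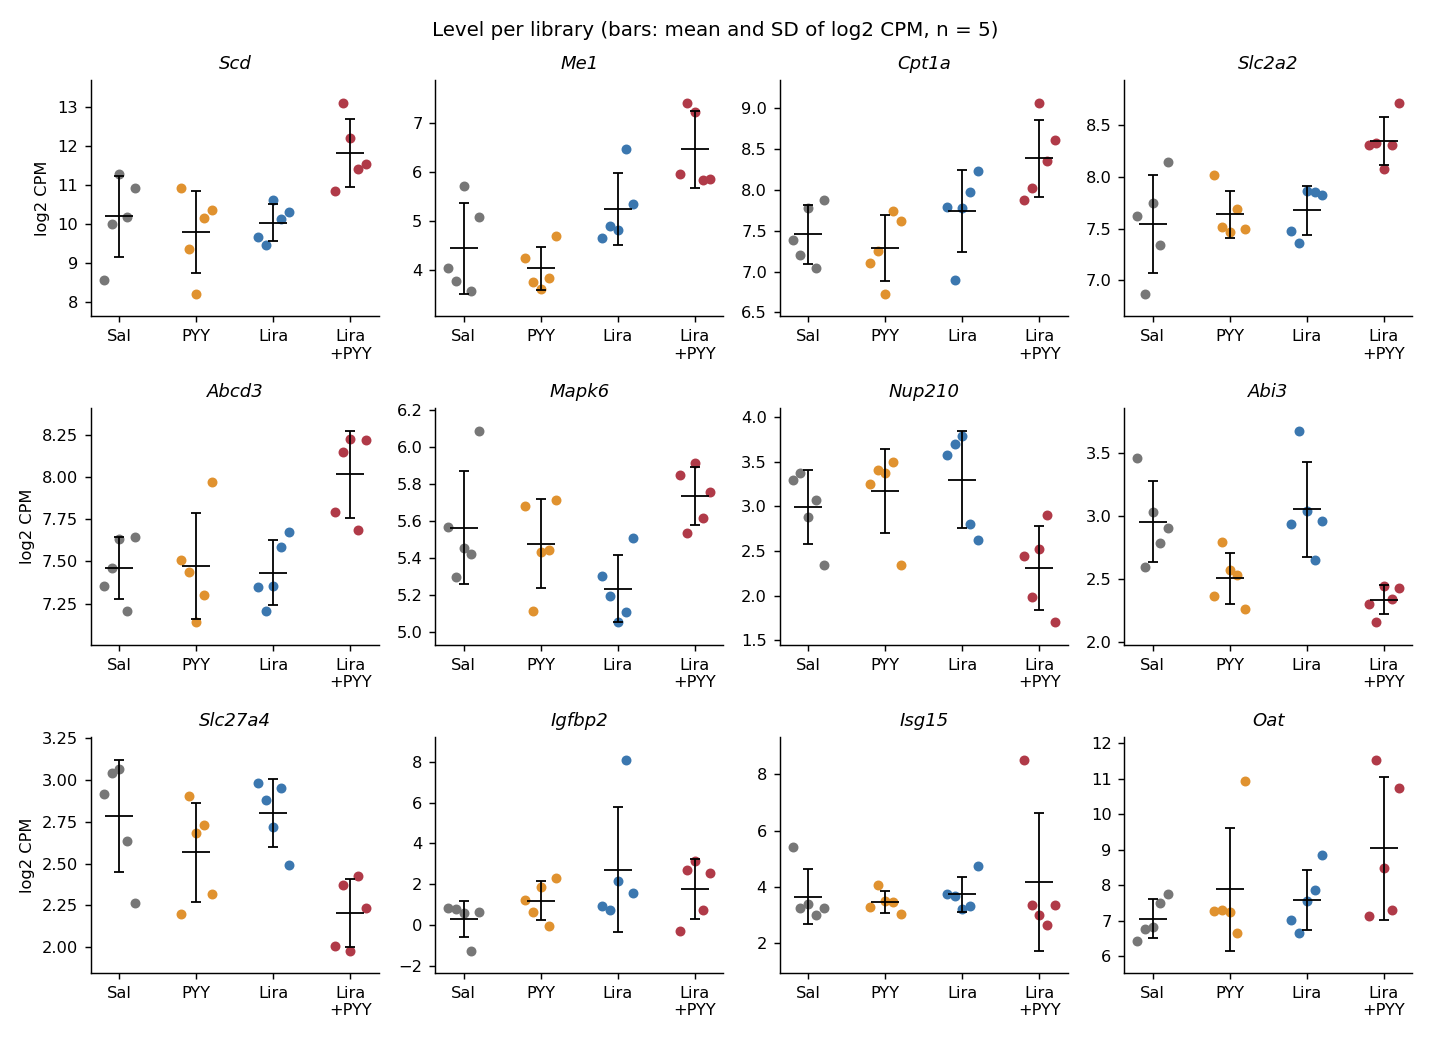
Level of 12 genes in log2 CPM (vertical axes, a separate scale for each gene) in each library given saline, PYY3-36, liraglutide or liraglutide+PYY3-36 (horizontal axes), each point 1 library and bars the mean and SD of log2 CPM. For Scd, Slc2a2, Abcd3 and Mapk6 all 5 red points lie above all 5 blue points, for Abi3 and Slc27a4 all lie below, and for Igfbp2 and Isg15 a single library lies far from the others of its group.

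Slc2a2 encodes GLUT2, the glucose transporter of hepatocytes (gene ID 25351, chromosome 2, 114413427 to 114445418). It was at 316, 321, 270.4, 317 and 420.4 CPM with PYY3-36 added and at 177, 165, 233, 230.4 and 227 without. All 5 libraries lay above all 5. The log2 fold change of 0.67 (standard error 0.225, unadjusted p = 0.00626 in edgeR) was 0.67 also without the outlying libraries. It ran from 0.33 to 0.76 over the settings other than leaving out single libraries.

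Ppp1r3b, which brings a phosphatase to glycogen, and Angptl8, an insulin-induced secreted protein, were highest in PYY_Lira replicate 7, at 386 and 805 CPM. Their log2 fold changes of 0.80 and 1.15 became -0.12 and -0.18 without that library. Igfbp1, which binds insulin-like growth factors in blood and is turned off by insulin, was at 44.4 ± 20.8 CPM with PYY3-36 added and 104 ± 34.1 without (SD, n = 5). Between the groups it was -1.23 on the log2 scale (unadjusted p = 0.0681 in edgeR). Of 19 genes of glucose production and insulin signalling 8 had values above 0 and 0 had an unadjusted p under 0.05. Pck1 and G6pc, which encode the key enzymes of glucose production, had values of 0.05 and -0.72.

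Several large fold changes rested on 1 or 2 animals. Igfbp2, another carrier of these growth factors, was at 0.702, 6.32, 8.84, 1.57 and 5.75 CPM with PYY3-36 added. Lira replicate 4 was at 277 CPM, and the other 4 liraglutide libraries were at 1.58 to 4.43. The log2 fold change of -3.63 (unadjusted p = 0.00469 in edgeR) became 0.76 without Lira replicate 4. A2m, the acute phase protein alpha-2-macroglobulin, was at 126 CPM in the same library and at 1.86 to 6.06 in the other 9. Its value of -2.77 became 0.51 without it. Sh3d21 was at 44.7 and 21.4 CPM in Lira replicates 1 and 3 and at 0.0506 to 3.91 in the other 8 libraries, with a log2 fold change of -3.30 (unadjusted p = 0.00505 in edgeR) that ranged from -4.13 to -2.18 when single libraries were left out.

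Some genes had lower values with PYY3-36 added in most animals, again short of the adjusted p. Nup210, a membrane protein of the nuclear pore (gene ID 58958, chromosome 4, 122643952 to 122741322), was at 5.31, 3.84, 5.65, 7.38 and 3.15 CPM with PYY3-36 added and at 11.8, 12.9, 13.7, 6.85 and 6.04 without. Only PYY_Lira replicate 10 reached into the range of the other group. On the log2 scale the difference was -1.02 (standard error 0.268, 95% interval -1.57 to -0.47, unadjusted p = 0.000812 in edgeR), and -0.78 without the outlying libraries. Abi3, an adaptor of the actin cytoskeleton found in macrophages (gene ID 303476, chromosome 10, 83644086 to 83655182), was at 4.35 to 5.33 CPM in the 5 libraries with PYY3-36 added and at 6.16 to 12.6 in the 5 without, with no overlap. Its log2 fold change was -0.77 (standard error 0.220, unadjusted p = 0.00176 in edgeR), and -0.86 without the outlying libraries. Usp11 (-0.82), a deubiquitinase, Zfp167 (-0.70), a zinc finger protein, and Il16 (-0.69), a cytokine, had unadjusted p-values of 0.00253, 0.00403 and 0.00571. Chac1, which breaks down glutathione, was at 3.71, 0.809, 4.74, 1.57 and 0.497 CPM against 18.8, 38.3, 13.7, 2.35 and 4.96, a log2 fold change of -2.79 (unadjusted p = 0.00667 in edgeR).

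Chac1 belongs to a list of 20 tested ATF4 targets and enzymes that make amino acids, of which 4 had values above 0 (median log2 fold change -0.39). At an unadjusted p under 0.05, 1 was lower and 0 were higher. The median was 0.01, with 10 of 20 positive, without the outlying libraries. Phgdh, which starts serine synthesis, was under 1 CPM in 9 libraries and at 5.74 CPM in Lira replicate 4, and its log2 fold change of -1.52 was -0.09 without that library. Of the clock genes, Nfil3, a repressor that follows the daily rhythm, was at 14.2 ± 5.14 CPM with PYY3-36 added and 34.0 ± 19.6 without (SD, n = 5), a log2 fold change of -1.26 (unadjusted p = 0.0105 in edgeR). Hlf, an activator that binds similar DNA sites, had a log2 fold change of 0.56 (unadjusted p = 0.0420 in edgeR). The other 17 tested clock genes had an unadjusted p of 0.05 or more.

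Within the 20 libraries of saline, PYY3-36, liraglutide and both peptides, a further group of genes was highest in PYY_Lira replicates 8 and 11 and PYY replicate 5, which are 3 of the outlying libraries. Oat, the ornithine aminotransferase of amino acid breakdown, was at 2976, 359 and 1719 CPM in PYY_Lira replicates 8, 9 and 11 and at 139.7 and 157 in replicates 7 and 10. The Lira libraries were at 100.4 to 459 CPM, with the outlying Lira replicate 4 at 231 and Lira replicate 5 the highest, and PYY replicate 5, with no liraglutide, was at 1949.6. The log2 fold change of 2.27 (unadjusted p = 0.0333 in edgeR) became -0.56 without the outlying libraries. Hif1a, the factor of the response to low oxygen, was at 93.6 and 107 CPM in PYY_Lira replicates 8 and 11, at 92.5 in PYY replicate 5 and at 6.33 to 27.3 in liraglutide alone. On the log2 scale the difference was 1.84, and 0.18 without the outlying libraries. Yipf4, a protein of the Golgi, had values of 1.72 and 0.36 in the same order, and Igf1, which encodes insulin-like growth factor 1, had 0.89 and -0.29. Tdo2, the dioxygenase of tryptophan breakdown, had 1.39 and 0.55. The part of PYY_Lira replicates 8 and 11 in these differences cannot be told apart from that of PYY3-36 in these animals.

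Vkorc1l1, a vitamin K epoxide reductase, was at 21.8 to 44.4 CPM with PYY3-36 added and at 12.7 to 18.4 without, with no overlap and a 95% interval of the log2 fold change of 0.31 to 1.68 (unadjusted p = 0.00610 in edgeR). PYY replicate 5 was at 49.8 CPM. The locus LOC103693015 had nearly the same values (unadjusted p = 0.00607), and since shared reads were divided between genes, the counts of both are uncertain. Mapk6, an atypical kinase, was at 46.3 to 60.2 CPM with PYY3-36 added and at 33.1 to 45.5 without, with no overlap. The difference was 0.50 on the log2 scale (unadjusted p = 0.00526 in edgeR), and 0.48 without the outlying libraries.

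Cyp2c11, the main male-specific cytochrome P450 of rat liver, was at 1926 ± 416 CPM with PYY3-36 added and 1195 ± 494 without (SD, n = 5), a log2 fold change of 0.69 (unadjusted p = 0.0128 in edgeR). It was 0.72 without the outlying libraries, and 0.24 to 0.76 over the settings other than leaving out single libraries. Abcb1b, a drug efflux pump, was at 76.9 CPM in PYY_Lira replicate 8 and at 638 in PYY replicate 5. Its log2 fold change of 2.52 ranged from 1.40 to 3.40 when single libraries were left out, and from 0.63 to 2.53 under the other settings. Of 15 UDP-glucuronosyltransferase genes 13 had values above 0 (median log2 fold change 0.49). The 8 members of the Ugt1a cluster share exons and had divided reads, with values of 0.48 to 0.49, so they count as 1 measurement rather than 8. Without the outlying libraries the median was 0.04.

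The values of the interferon-stimulated genes rested on 1 animal. Isg15, a ubiquitin-like protein, was at 368 CPM in PYY_Lira replicate 7 and at 6.17 to 10.3 in the other 4 libraries with PYY3-36 added, against 9.11 to 26.6 in liraglutide alone. Oasl was at 38.6 CPM in that library and under 3 CPM in the other 9. Of 43 tested genes of this list 32 had values above 0 (median log2 fold change 0.35), with 2 of them higher at an unadjusted p under 0.05. Without PYY_Lira replicate 7, 13 of 43 were positive and the median was -0.29. The log2 fold changes of Isg15, Oasl and Herc6 were -0.72, -0.95 and -0.29 without that library. Without the outlying libraries, which leaves replicate 7 as 1 of 2 with PYY3-36 added, 38 of 43 were positive.

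The lists of immune cell markers differed in direction, and no marker passed the adjusted p. In bulk liver, fewer cells of a type and less RNA per cell cannot be told apart. Of 13 markers of Kupffer cells and macrophages 3 were positive, with a median of -0.19. Csf1r, the receptor that keeps macrophages alive, was at 11.9, 6.47, 9.10, 19.0 and 9.29 CPM with PYY3-36 added and at 18.7, 26.0, 26.9, 7.89 and 13.9 without, a log2 fold change of -0.74 (unadjusted p = 0.0407 in edgeR). Clec4f, the marker of Kupffer cells, had one of -0.47 (unadjusted p = 0.130 in edgeR). The summed level of the 13 markers was 363.7 to 681.8 CPM with PYY3-36 added and 512.0 to 673.3 without. All 8 markers of B and plasma cells had negative values, with a median of -0.77 and a summed level of 1.7 to 6.3 against 3.9 to 10.97 CPM. Their levels were near the lower limit of detection, with Cd79a at 0 in PYY_Lira replicate 8. Of 10 markers of T and NK cells 4 were positive, with a median of -0.19. The 7 markers of neutrophils and monocytes were split, with 4 positive, 3 negative and a median of 0.54, which was 0.010 without PYY_Lira replicate 10. Of these, S100a8 and S100a9, which form the calcium-binding protein calprotectin, had log2 fold changes of 0.87 and 0.99 (unadjusted p = 0.152 and 0.0714 in edgeR). Both were high in outlying libraries. In log2 CPM, S100a8 was at 2.36 to 3.09 in PYY_Lira replicates 8, 9 and 11, 2.58 in Lira replicate 4 and 2.36 in PYY replicate 5. It was at 0.94 and 0.10 in PYY_Lira replicates 7 and 10. S100a9 was at 2.99 to 4.08 in PYY_Lira replicates 8, 9 and 11, and at 1.71 and 1.61 in replicates 7 and 10. Of 30 genes of antigen presentation 9 were positive, with a median of -0.26. Of the 10 markers of sinusoidal endothelium 4 were positive, and Vwf had a log2 fold change of -0.69 (unadjusted p = 0.042 in edgeR). The part of immune cell content in the values of Abi3 and Il16 was not tested.

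The cytokine Il1b was at 7.31 ± 1.09 CPM with PYY3-36 added and 7.89 ± 1.83 without (SD, n = 5), a log2 fold change of -0.11 with a 95% interval of -0.88 to 0.66. Tnf did not pass the filter on low counts, with at most 5.5 counts in a library. Fgf21, the fasting hormone of the liver, was at 16.2 ± 16.8 and 13.7 ± 5.43 CPM, with PYY_Lira replicate 7 at 45.2. Of 79 cytosolic ribosomal protein genes 18 had values above 0 (median log2 fold change -0.17). Without Lira replicate 4, 48 were positive and the median was 0.12.

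**Figure D4:**
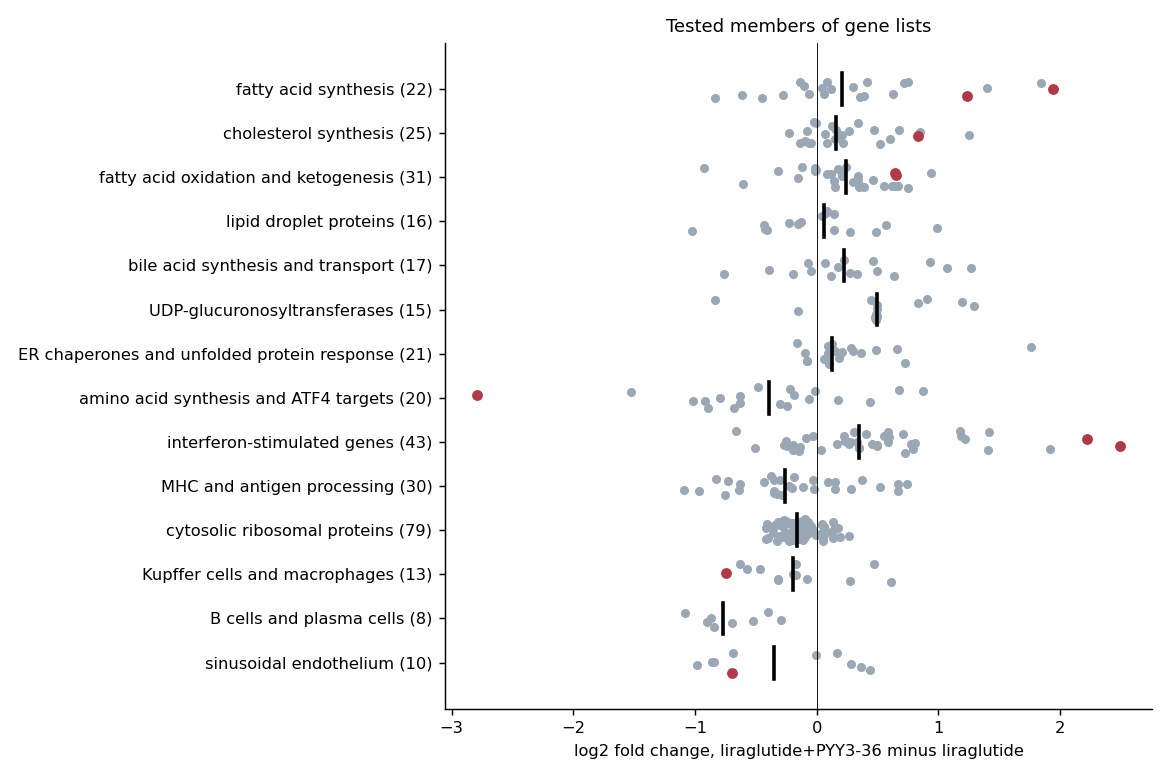
Log2 fold change of liraglutide+PYY3-36 minus liraglutide (horizontal axis) of the tested genes of 14 lists (vertical axis, with the number tested in brackets), with members at an unadjusted p under 0.05 in red, the others in grey and the median of each list as a black line. No point passed an adjusted p of 0.05. All 8 markers of B and plasma cells lie to the left of 0, and 13 of 15 UDP-glucuronosyltransferases lie to the right. Of the latter, 8 are Ugt1a members with divided reads that count as a single measurement.

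The 4 pump groups of batch B allowed the question whether PYY3-36 changed the liver differently with liraglutide than without it. The change on liraglutide was set against the change from saline to PYY3-36 alone, a pair of groups that shares no library with the first. In edgeR 0 of 16004 genes (0%) passed the adjusted p for this difference, where the smallest was 0.9998, and 224 (1.4%) had an unadjusted p under 0.05. DESeq2 called 0 genes, with 275 at an unadjusted p under 0.05, and limma-voom called 3293 with sample quality weights and 0 without them. PYY3-36 alone against saline called 0 genes, with 290 (1.81%) at an unadjusted p under 0.05, and liraglutide against saline called 0, with 477 (2.98%).

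Scd was at 1964, 657, 299.7, 1148 and 1319 CPM with PYY3-36 alone and at 383, 1028, 2524, 1172 and 1949.7 with saline. Both ranges took in the whole range of liraglutide alone, while the highest of the combined group lay above every library of the other 3 groups. The log2 fold change of PYY3-36 alone was -0.39 (standard error 0.519), and the difference between both changes was 2.33 (standard error 0.743, unadjusted p = 0.00423 in edgeR). Me1 showed a similar contrast, with 1.23 on liraglutide and -0.60 on saline, a difference of 1.83 (unadjusted p = 0.00619 in edgeR). Insig1 had 1.25 and -1.38, a difference of 2.64 (unadjusted p = 0.0196 in edgeR). Saline replicate 7 was the highest saline library for Scd, Me1 and Insig1. Its Insig1 was at 173 CPM, the rest of saline at 9.90 to 64.2, and the medians of PYY3-36 alone and saline were 22.4 and 25.3 CPM. PYY_Lira replicate 8, at 489 CPM, was the highest for Insig1 with PYY3-36 added. The differences between both changes were not recomputed gene by gene without single libraries. Slc2a2 had 0.67 and 0.05 (difference 0.62, unadjusted p = 0.0610).

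Nup210 had -1.02 on liraglutide and 0.19 on saline, a difference of -1.21 (standard error 0.376, unadjusted p = 0.00350 in edgeR). For Abi3 the values were -0.77 and -0.47, a difference of -0.29 (unadjusted p = 0.352 in edgeR). Igfbp1 had -1.23 and -2.69, with saline libraries between 26.3 and 516 CPM. The smallest p of the difference was that of the ribosomal RNA gene Rn5-8s (1.08 and -1.97, difference 3.05, unadjusted p = 0.000317 in edgeR). Its transcript has no poly(A) tail, and its level after poly(A) capture is uncertain. Tnfrsf12a, the receptor of the cytokine TWEAK, had 0.87 and -0.89, and Tead2, a factor of the Hippo pathway, had -1.08 and 0.88. In both cases PYY3-36 alone and liraglutide alone lay on the same side of saline, and the combined group lay nearer to saline. Part of this rested on single libraries. PYY_Lira replicate 10 was the highest of its group for Tnfrsf12a, and without it the value of 0.87 on liraglutide became 0.46. Lira replicate 2 was the highest of its group for Tead2, and without it the value of -1.08 on liraglutide became -0.47. Tnfrsf12a was at 9.38 ± 4.34 CPM with saline, 5.05 ± 1.68 with PYY3-36, 4.19 ± 0.883 with liraglutide and 7.63 ± 4.29 with both (SD, n = 5).

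**Figure D5:**
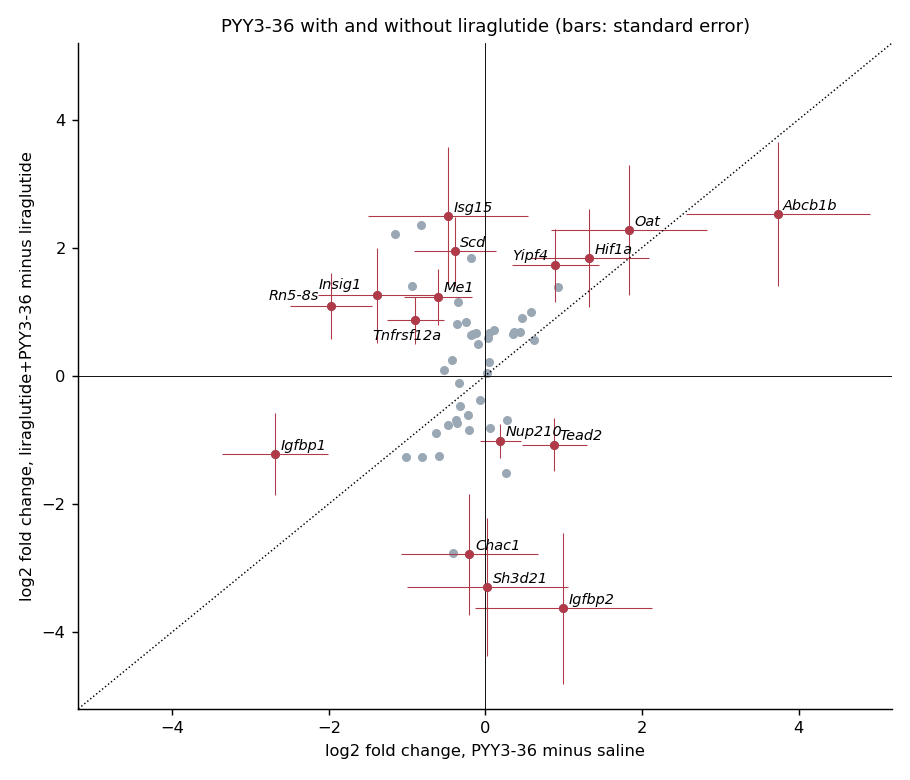
Log2 fold change of liraglutide+PYY3-36 minus liraglutide (vertical axis) against that of PYY3-36 minus saline (horizontal axis) for genes taken by the naming rule, with 16 of them labelled in red with standard errors and the dotted line where both are equal. Scd, Me1 and Insig1 lie at the upper left, Oat, Hif1a and Yipf4 near the line at the upper right, and Igfbp2 at the lower right. Adh6 lies outside the axes.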

How the data were processed

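Liver RNA was sequenced after poly(A) capture, as single reads of a strand-specific library. The authors trimmed reads with cutadapt 2.5, aligned them to Rnor_6.0, a build of the rat genome, using STAR 2.7.2b and RefSeq gene models, and counted them per gene with featureCounts 1.6.4, dividing reads that matched several places or genes. The deposited values are these estimated counts, not normalized, and 14.5% of those in the 10 libraries compared were not whole numbers. Near-identical genes therefore share reads.

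After rounding, edgeR 4.0.16 (R 4.3.3) was used. Its filter filterByExpr kept 16004 of 38513 genes. TMM gave the library sizes, and edgeR's robust quasi-likelihood test was run on 1 fit with group terms over the 28 batch B libraries, which share 1 estimate of the spread. Benjamini-Hochberg adjustment covered every gene tested, and a gene was called at an adjusted p under 0.05. CPM values use TMM-scaled library sizes. Log2 CPM in the plots and principal components has a prior count of 2. Unless another tool is named, p-values are from edgeR, two-sided.

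Groups came from the labels. Nothing in the labels says that replicates are separate litters or days, so p-values measure the spread between these libraries. Total counts in the 28 libraries were 9110860 to 27531568. The lists, the rule for the genes named and the libraries to leave out were chosen with earlier results of these data known. The rule took the genes with the smallest p in each direction whose mean log2 CPM was 1 or more, up to 4 members of each of 46 lists by p, 5 genes of the difference between both additions, the genes the study measured and the receptors. Some genes that meet the rule are left out. Fasn, Acly, Acaca, Srebf1, Pck1 and G6pc are list members outside it, named after their values were seen.

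Alternatives were DESeq2 1.42.0 with shrinkage, limma 3.58.1 (voom) with sample quality weights, DESeq2 size factors, no filter, unrounded counts, no robust estimation, only the groups compared, 55 libraries of both batches with a batch term or with a term for each group within each batch, 2 surrogate variables from sva 3.50.0, leaving out each library, and leaving out the 6 libraries at the far end of the first component. Limma-voom without sample weights was added after seeing the data. BWM and Lean libraries were not used here. Some genes are not reported here.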

Additional observations from a re-analysis of the deposited data

Results flagged for a closer look

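In 7 of 116 groups of 5 values (58 genes in both groups), 1 library lay far from the others of its group by Dixon's rule, which chance meets in about 1 of 20 groups. The values are log2 CPM. PYY_Lira replicate 7 was at 8.53 for Isg15, where the next library of its group was at 3.38, and at 5.27 for Oasl, where the next was at 0.56. Lira replicate 4 was at 8.11 for Igfbp2 and 6.97 for A2m, where the next libraries were at 2.18 and 2.00. It was also the low library for Oasl, at -2.00, where the next was at 0.65. Lira replicate 2 was low for Yipf4, at 2.97, where the next was at 4.01. PYY_Lira replicate 8 was low for Cd79a, at -3.16, where the next was at -0.99, and its count there was 0.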

How the results depend on the processing

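No paired analysis was possible because the liraglutide libraries carry replicate numbers 1 to 5 and the liraglutide+PYY3-36 libraries 7 to 11, which share none. Without each library in turn, the count of genes called was 0 to 0 for both the addition of PYY3-36 to liraglutide and its difference from the addition to saline. It was 0 under each other setting for these comparisons except limma-voom with sample quality weights, which called 5940 and 3293 genes. The same tool without the weights, an alternative chosen after seeing the data, called 0 of both, and the weights were the one difference between these fits. Liraglutide against saline called 1 gene in the 55 libraries with group and batch. Of 1273 values of 58 genes under these settings, 1209 kept their direction and side of the threshold, 26 passed it with the sample weights, and 38 changed direction, while 41 genes never changed direction. With the sample weights the log2 fold changes of Igfbp2, A2m, Phgdh and Il1b were 0.88, 0.032, 0.036 and 0.18, and those of Ppp1r3b, Angptl8, Hspa1a, Isg15, Oasl, Fgf21 and Plin2 were -0.44, -0.13, -0.29, -0.079, -0.75, -0.51 and -0.17. Fgf21 was -0.19 in limma-voom without weights, Plin3 -0.12 in the 55 libraries with group and batch and -0.094 with 2 surrogate variables, and Gcgr 0.12 with these. Without the 6 outlying libraries A2m, Phgdh, Hmgcs1, Igf1 and Oat were 0.54, 0.16, -0.044, -0.29 and -0.56. Without single libraries the values ran from -4.00 to 0.76 for Igfbp2, -3.08 to 0.51 for A2m, -0.12 to 1.07 for Ppp1r3b, -0.18 to 1.43 for Angptl8, -0.077 to 2.65 for Hspa1a, -0.72 to 2.85 for Isg15, -0.95 to 2.52 for Oasl, -0.29 to 1.93 for Herc6, -0.54 to 0.057 for Gcgr, -0.081 to 0.38 for Plin3, -0.61 to 0.50 for Fgf21 and -0.030 to 0.30 for Plin2. Beyond the weights themselves, the cause of these changes was not tested. The median standard error was 0.39 in groups of 5, and large differences did not pass either. Scd, at a log2 fold change of 1.94, had an adjusted p of 0.815 in edgeR. A count of 0 genes therefore does not show that PYY3-36 left the liver unchanged.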

Other observations

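Adh6, an alcohol dehydrogenase, was near 0 in most animals and high in a few animals of liraglutide alone, PYY3-36 alone and saline. It was at 136 and 74.9 CPM in Lira replicates 2 and 3, at 201 and 119 in PYY replicates 2 and 3, and at 122 and 51.4 in Saline replicates 7 and 8. The 5 liraglutide+PYY3-36 libraries were at 0 to 0.276 CPM.

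In the libraries labelled batch A, the level of Scd was lower than in those of the same groups labelled batch B. It was at 55.8 to 667 CPM in the 6 libraries with both peptides (median 232) and at 15.5 to 264 in 3 saline libraries, so that these groups overlapped. Batch A holds no library of liraglutide alone, and the comparison with liraglutide cannot be made there.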
